A study of Homo sapiens with 12 samples.

Results

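Paraspeckles are nuclear bodies built on a long noncoding RNA, and 6 genes that make them or lie next to their scaffold gene are described here: the noncoding RNAs NEAT1 and MALAT1 and the protein-coding genes SFPQ, NONO, PSPC1 and RBM14. They were chosen by gene symbol, and each matched a single row of the 58671 gene rows in the table. The cells were A549, a line of epithelial cells from a human lung carcinoma, either lacking RNase L (RLKO) or parental (WT). Each line was harvested 6 h after transfection with poly(I:C), an artificial RNA duplex, at 500 ng/ml, or was left untreated. The 4 groups were RLKO with poly(I:C), RLKO untreated, WT with poly(I:C) and WT untreated, with 3 samples in each. The sources used here do not give how the gene was disrupted or whether the RLKO line is a single clone. Every level below is the authors' FPKM for a group, a value per transcript length pooled over its samples, so that no error between samples can be given.

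NEAT1 is transcribed into a short polyadenylated form and a long form, and the long form is the scaffold that holds a paraspeckle together. SFPQ, NONO and PSPC1 belong to the DBHS family of RNA-binding proteins, which coat NEAT1 as dimers, and RBM14 joins them in assembling the body. MALAT1, the neighbouring gene, yields an abundant RNA of nuclear speckles, where splicing factors collect. RNase L is an endoribonuclease switched on by 2-5A, a product of cells that sense double-stranded RNA, and it cuts single-stranded RNA preferentially after UU and UA.

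NEAT1 lies at chr11:65422774-65445540 (GRCh38, plus strand) and MALAT1 at chr11:65497688-65506516 on the same strand, with 52.147 kb between them. Neither long transcript ends in a conventional poly(A) tail. A tRNA-like RNA is cut off at the end, and the new end folds into a triple helix of U-rich and A-rich stretches. The last 120 bases before that tRNA-like RNA are shown because they are the feature shared by the ends of these RNAs. Capitals mark every run of at least 8 bases that both ends have in common, written in DNA letters on the transcript strand, and the sequences are those of GENCODE.
NEAT1, chr11:65445421-65445540, plus strand: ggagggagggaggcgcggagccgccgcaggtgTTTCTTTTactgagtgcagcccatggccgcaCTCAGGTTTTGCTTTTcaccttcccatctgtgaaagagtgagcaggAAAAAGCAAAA
MALAT1, chr11:65505997-65506116, plus strand: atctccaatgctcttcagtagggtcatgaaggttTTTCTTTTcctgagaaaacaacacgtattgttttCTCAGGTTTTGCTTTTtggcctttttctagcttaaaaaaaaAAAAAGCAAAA
The 3 common runs were TTTCTTTT, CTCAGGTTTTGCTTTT and AAAAAGCAAAA, which do not overlap, and they stood in the same order in both ends. The first and the second hold the U-rich stretches of the triple helix and the last its A-rich stretch. Among the last 120 bases of 200764 GENCODE transcripts, searched on the transcript strand, TTTCTTTT was present in 1.48%, AAAAAGCAAAA in 0.0553% and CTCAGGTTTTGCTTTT in 1 transcript. The long NEAT1 transcript had to hold all 3, since the runs were taken from its own end. No other annotated end held all 3, and the annotated MALAT1 transcript runs past the cut. The rows of the tRNA-like RNAs themselves (both named RF01684, of 58 bases at NEAT1 and 57 bases at MALAT1) were listed at 0 in all 4 groups.

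The spike-in RNAs took a larger part of the libraries after poly(I:C), by a factor of 1.13 in RLKO and 1.53 in WT, so log2 changes are given on the scale of the spike-ins, and in FPKM as deposited where that matters. Over 12181 protein-coding rows the median change was thus -0.24 in RLKO and -0.70 in WT, but -0.10 in RLKO and -0.17 in WT in FPKM. The epithelial keratins KRT8 and KRT18 were high in every group (lowest 256 FPKM). KRT19, another epithelial keratin, had 46.3 FPKM with poly(I:C) and 54.0 FPKM untreated in RLKO, against 6.64 FPKM with poly(I:C) and 14.4 FPKM untreated in WT, while EPCAM (highest 1.03 FPKM) and CDH1 (highest 4.52 FPKM) were low. Of the leukocyte, endothelial and fibroblast markers, COL1A1 reached 7.17 FPKM, and none of the others was over 0.873 FPKM.

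NEAT1 rose after poly(I:C) in WT cells and was not called in RLKO cells. Its row covers 8 annotated transcripts, of which 7 are short, spanning at most 3684 bases. The level thus does not separate the short form from the long scaffold, and the rise cannot be assigned to either. In RLKO NEAT1 had 71.0 FPKM with poly(I:C) and 95.9 FPKM untreated, a ratio of 0.741. In WT it had 358 FPKM with poly(I:C) and 56.9 FPKM untreated, a ratio of 6.29. The treated WT cells thus stood apart from the other groups, which lay between 56.9 and 95.9 FPKM. The log2 change on the spike-in scale was -0.60 in RLKO, with q = 0.9995 in the authors' deposited table, and 2.02 in WT, with q = 0.0018 in the same table. Among the rows with at least 1 FPKM in some group, that q is the lowest for WT and is shared by 562. In bulk RNA, fewer cells that respond and less RNA per cell cannot be told apart.

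MALAT1, the more abundant of the neighbours, was not called in either line. In RLKO it had 6123 FPKM with poly(I:C) and 5659 FPKM untreated. In WT it had 6630 FPKM with poly(I:C) and 3418 FPKM untreated, a ratio of 1.94. The untreated WT cells were the low group, and the other groups lay between 5659 and 6630 FPKM. In WT the authors' deposited table gave p = 0.0368 and q = 0.211, and in RLKO p = 0.806 and q = 0.9995. Its log2 change in WT was 0.34 relative to the spike-ins and 0.96 in FPKM. In RLKO it was -0.06 relative to the spike-ins but 0.11 in FPKM, so its direction there depends on the scale.

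Of the 6 genes, all of which passed the filter of 1 FPKM, none was called in RLKO, and no member there had an unadjusted p under 0.05. In RLKO, rises were called in 0.512% and falls in 0.0272% of all 22087 rows, and rises in 0.287% of the 1045 lincRNA rows. In WT 1 of the 6 was called, NEAT1, and 2 of the 6 had an unadjusted p under 0.05. In WT, rises were called in 4.48% and falls in 3.35% of all rows, and rises in 17.3% and falls in 0.766% of lincRNA rows. Called rises were thus more frequent among kept lincRNA rows than among all kept rows in WT. The median lincRNA change there was 0.55 against -0.21 in RLKO. A row low elsewhere can pass the filter of 1 FPKM through treated WT cells alone, and it is then highest there. The lincRNA share and median in WT can thus be in part set by that filter, and how far was not tested. By level, NEAT1 ranked 10 of 1045 lincRNA rows in RLKO with poly(I:C) and 10 in RLKO untreated, and 6 in WT with poly(I:C) and 14 in WT untreated. MALAT1 ranked 1 in each group except untreated WT, where it ranked 2. Among the 67 lincRNAs with at least 10 FPKM in untreated WT cells, NEAT1 had the second largest log2 change in WT and MALAT1 ranked 10. Among the 181 lincRNA rows called higher in WT, NEAT1 had the highest treated level, ahead of AC015912.3 at 232 FPKM.

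**Figure D1:**
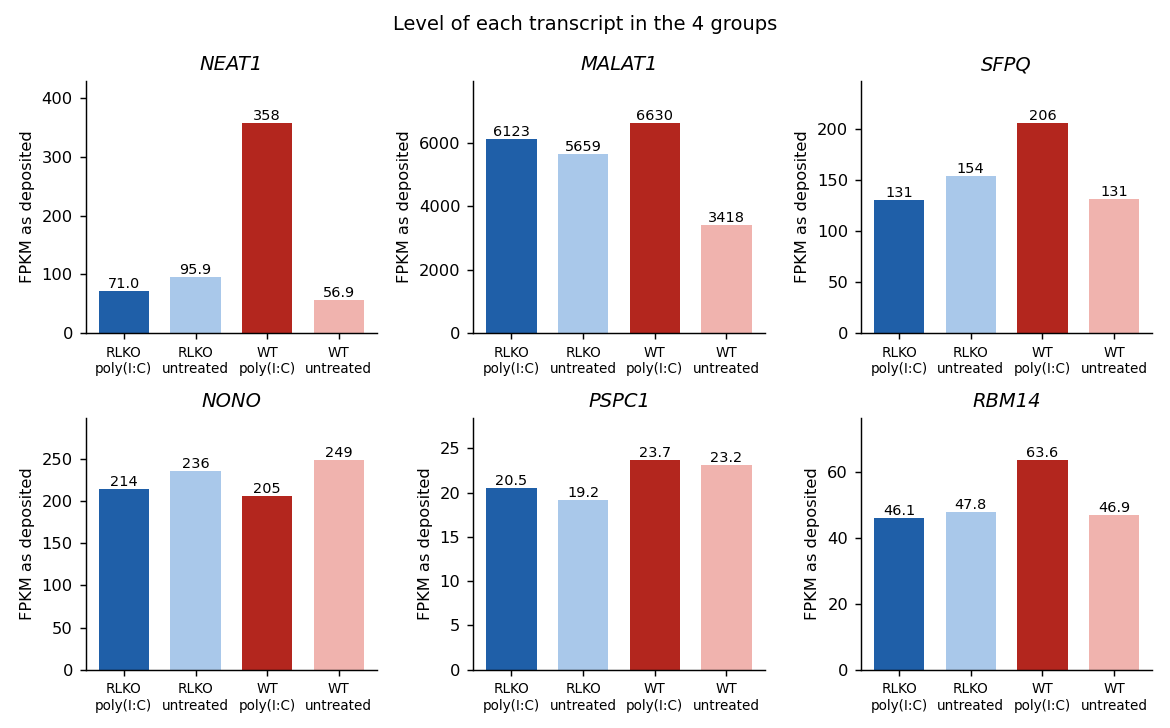
FPKM as deposited (vertical axis, from 0, a separate range for each gene) of the 6 transcripts in RLKO cells with poly(I:C), RLKO untreated, WT with poly(I:C) and WT untreated; bars are pooled group values without error bars. NEAT1 stood at 358 FPKM in treated WT cells and at 56.9 to 95.9 FPKM in the other groups.

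Several short annotated rows lie inside the genes and were listed separately. RF01955, RF01956 and RF01957 are structured stretches within the first 1.34 kb of NEAT1, in the part that the short and long forms share. RF01871 lies inside MALAT1. They are shown because they report on a stretch of each host, with the dinucleotides TT and TA in capitals.
RF01955, chr11:65423273-65423392, plus strand: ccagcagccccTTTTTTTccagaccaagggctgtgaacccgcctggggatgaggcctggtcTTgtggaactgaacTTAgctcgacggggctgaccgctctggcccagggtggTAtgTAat
RF01956, chr11:65423638-65423742, plus strand: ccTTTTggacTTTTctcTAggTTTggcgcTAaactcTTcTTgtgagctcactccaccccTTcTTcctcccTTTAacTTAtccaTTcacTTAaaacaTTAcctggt
RF01957, chr11:65423960-65424118, plus strand: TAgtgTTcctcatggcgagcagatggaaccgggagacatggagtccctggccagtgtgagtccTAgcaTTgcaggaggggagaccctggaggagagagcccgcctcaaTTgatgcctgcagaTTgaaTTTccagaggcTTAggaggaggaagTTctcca
RF01871, chr11:65502914-65503008, plus strand: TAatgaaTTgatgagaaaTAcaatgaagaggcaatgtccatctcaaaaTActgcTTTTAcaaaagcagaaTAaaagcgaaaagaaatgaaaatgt
Fragments from these stretches cannot be told apart from those of the host, and the sources used here do not give how they were divided, so the values are uncertain.

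None of these short rows was called in either line. RF01955 had 163 FPKM with poly(I:C) and 183 FPKM untreated in RLKO, against 846 FPKM with poly(I:C) and 232 FPKM untreated in WT. RF01956 had 55.1 FPKM with poly(I:C) and 145 FPKM untreated in RLKO, against 484 FPKM with poly(I:C) and 159 FPKM untreated in WT. RF01957 had 56.8 FPKM with poly(I:C) and 104 FPKM untreated in RLKO, against 199 FPKM with poly(I:C) and 72.4 FPKM untreated in WT. Each was thus highest in treated WT cells, as NEAT1 itself was, with treated to untreated ratios of 3.65, 3.05 and 2.75 in WT. MIR612, a microRNA gene in the stretch of NEAT1 that only the long form holds, had 3.99 FPKM with poly(I:C) and 10.5 FPKM untreated in RLKO, and in WT it was listed at 0 with poly(I:C) and had 6.34 FPKM untreated. RF01871 had 877 FPKM with poly(I:C) and 156 FPKM untreated in RLKO, against 1796 FPKM with poly(I:C) and 180 FPKM untreated in WT. Its treated to untreated ratio was 5.63 in RLKO and 9.98 in WT, both above those of MALAT1, whose ratios were 1.08 and 1.94.

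No protein-coding gene around the pair was called. Within 100 kb of either gene, 10 other protein-coding genes were kept, and none was called, with 0 unadjusted p-values under 0.05 in RLKO and 0 in WT. Their log2 changes on the spike-in scale ran from -0.76 to 0.08 in RLKO and from -1.58 to 0.02 in WT. Of all protein-coding rows, 0.821% were called higher and 0.0246% lower in RLKO, and 4.27% higher and 3.09% lower in WT. The 0 of 10 here is thus near the background. FRMD8, the nearest upstream gene, had 9.36 FPKM with poly(I:C) and 10.1 FPKM untreated in RLKO, against 9.01 FPKM with poly(I:C) and 13.6 FPKM untreated in WT. Between the pair, the transcribed pseudogene AP000769.1 had 10.1 FPKM with poly(I:C) and 26.0 FPKM untreated in RLKO, against 15.1 FPKM with poly(I:C) and 23.4 FPKM untreated in WT. Of the noncoding rows outside both genes, SSSCA1-AS1, an antisense RNA, had 1.15 FPKM with poly(I:C) and 0.856 FPKM untreated in RLKO, against 3.69 FPKM with poly(I:C) and 1.17 FPKM untreated in WT, and it was not called (p = 0.0167 and q = 0.127 for WT in the authors' deposited table).

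**Figure D2:**
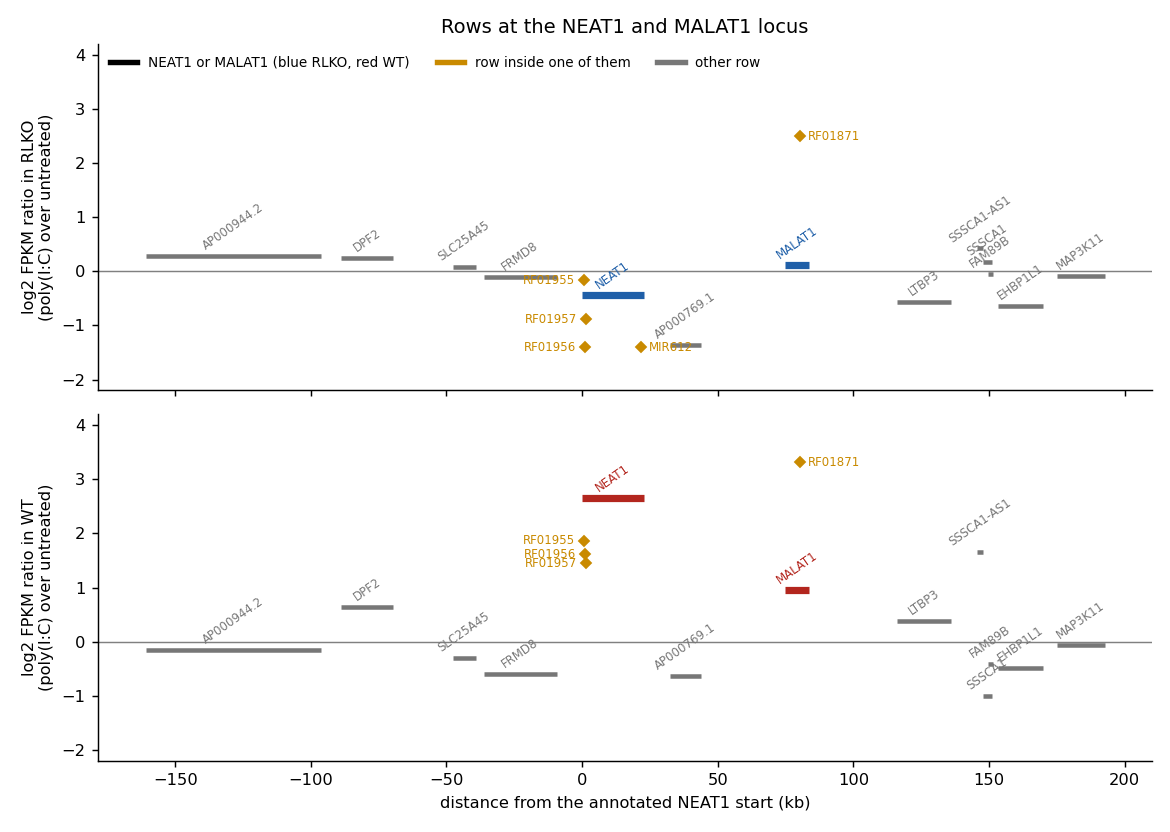
log2 ratio of treated to untreated FPKM (vertical axis; RLKO in the upper panel, WT in the lower) of most kept rows with values above 0, drawn at their distance in kb from the annotated NEAT1 start. NEAT1 had a ratio of 0.741 in RLKO and 6.29 in WT, the short rows RF01955, RF01956 and RF01957 had ratios of 3.65, 3.05 and 2.75 in WT, and RF01871 inside MALAT1 had ratios of 5.63 and 9.98.

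The DBHS proteins that coat NEAT1 were not called in either line. SFPQ (chr1:35176378-35193148), a splicing factor that NEAT1 can hold in paraspeckles away from its target genes, had 131 FPKM with poly(I:C) and 154 FPKM untreated in RLKO, against 206 FPKM with poly(I:C) and 131 FPKM untreated in WT. Treated WT cells were the high group, with a ratio of 1.57, and the authors' deposited table gave q = 0.600 there. That log2 change was 0.04 relative to the spike-ins and 0.65 in FPKM, and by the sum of the spike-ins it was -0.05, so no direction can be given for SFPQ in WT. NONO (chrX:71283192-71301168), the partner with which SFPQ forms dimers, had 214 FPKM with poly(I:C) and 236 FPKM untreated in RLKO, against 205 FPKM with poly(I:C) and 249 FPKM untreated in WT. In FPKM its groups thus lay within a narrow range, with log2 changes of -0.14 in RLKO and -0.28 in WT. Relative to the spike-ins the groups lay further apart, with log2 changes of -0.32 in RLKO and -0.89 in WT. The value in RLKO was 0.05 when the groups were scaled to the median of all rows.

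PSPC1 (chr13:19674752-19783019), the least abundant of the family, had 20.5 FPKM with poly(I:C) and 19.2 FPKM untreated in RLKO, against 23.7 FPKM with poly(I:C) and 23.2 FPKM untreated in WT. These levels are nearly equal in FPKM, where the log2 change was 0.09 in RLKO and 0.03 in WT. Relative to the spike-ins it was -0.08 in RLKO and -0.56 in WT, with untreated WT cells as the high group, so the sign of the change differed between the scales in each line. RBM14 (chr11:66616582-66627347), an RNA-binding coactivator needed for paraspeckle assembly, had 46.1 FPKM with poly(I:C) and 47.8 FPKM untreated in RLKO, against 63.6 FPKM with poly(I:C) and 46.9 FPKM untreated in WT. Treated WT cells were again the high group in FPKM, with a ratio of 1.36, while the log2 change on the spike-in scale was -0.17. The lowest unadjusted p among these 4 proteins in the authors' deposited table was 0.712 in RLKO and 0.328 in WT. Of all protein-coding rows, 0.821% were called higher and 0.0246% lower in RLKO, and 4.27% higher and 3.09% lower in WT, so that 0 of 4 is near the background.

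**Figure D3:**
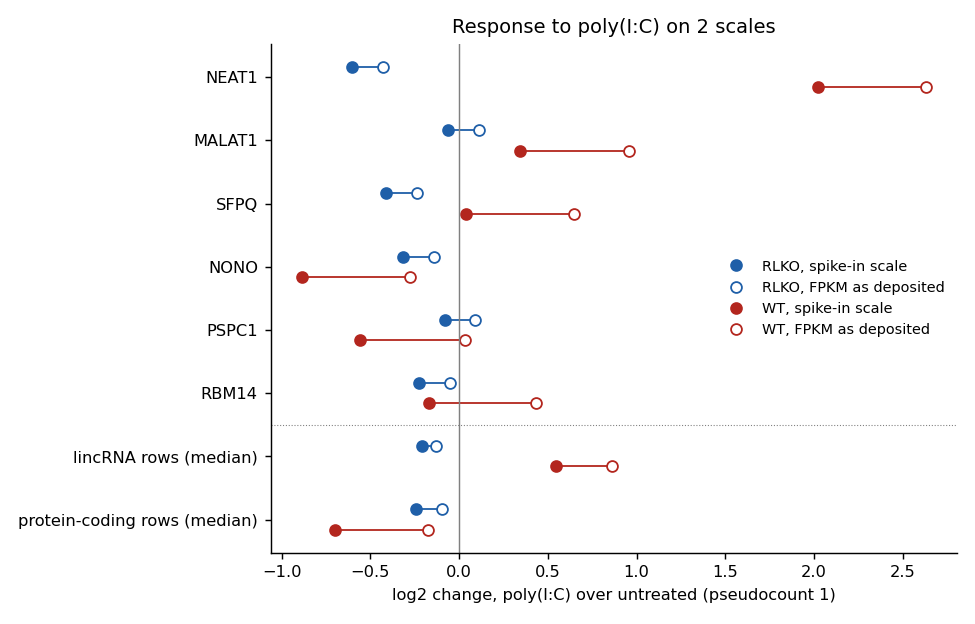
Difference in log2 level of poly(I:C) minus untreated cells (horizontal axis, 1 FPKM added) of the 6 genes and the medians of lincRNA and protein-coding rows, in RLKO (blue) and WT (red), scaled to the spike-ins (filled) or in FPKM as deposited (open). NEAT1 in WT lies at 2.02 and 2.63, while MALAT1 in RLKO, RBM14 in WT and PSPC1 in both lines lie on opposite sides of 0 on these scales.

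Set against each other before treatment, RLKO cells had the higher level of both noncoding RNAs. Untreated RLKO cells had 1.68 times the FPKM of untreated WT cells for NEAT1 and 1.66 times for MALAT1. For the 4 proteins the same ratio lay between 0.828 for PSPC1 and 1.17 for SFPQ. On the spike-in scale the log2 difference, RLKO minus WT, was 0.45 for NEAT1 and 0.43 for MALAT1. For the 4 proteins it lay between -0.54 for PSPC1 and -0.06 for SFPQ. The medians were -0.24 for protein-coding rows and -0.05 for lincRNA rows. After poly(I:C), RLKO cells had 0.198 times the FPKM of WT cells for NEAT1, 0.923 times for MALAT1 and 0.634 times for SFPQ. This ratio was 0.724 for RBM14, 0.863 for PSPC1 and 1.04 for NONO. NEAT1 was thus the member that differed most between the treated lines. The log2 response in RLKO minus that in WT was -2.63 for NEAT1 on the spike-in scale, the lowest of the 67 lincRNAs above. It was -0.41 for MALAT1, -0.45 for SFPQ, -0.05 for RBM14, 0.48 for PSPC1 and 0.57 for NONO, where the median of protein-coding rows was 0.47 and that of lincRNA rows -0.76. In FPKM, the scale of the ratios above, the same difference was -3.06 for NEAT1, -0.84 for MALAT1, -0.88 for SFPQ, -0.48 for RBM14, 0.06 for PSPC1 and 0.14 for NONO, with medians of 0.10 for protein-coding rows and -1.0 for lincRNA rows. These differences carry no test, since the table gives a single value for each group.

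Other proteins of the paraspeckle were not called in either line. Of 34 such proteins 32 were kept, as 33 rows, and TAF15 and HNRNPR were listed at 0 in all groups. Of all protein-coding rows, 4.27% were called higher and 3.09% lower in WT, and 0.821% higher and 0.0246% lower in RLKO. At these shares few of 33 rows would be called, so the lack of calls says little about the list. None of the 33 rows had an unadjusted p under 0.05 in RLKO, and 4 had in WT, of which 2 were higher with poly(I:C). The share of all rows with such a p was not counted, so these counts have no background. The most abundant of the list were MATR3, a nuclear matrix protein, and RBM3, a cold-inducible RNA-binding protein. The main MATR3 row had 335 FPKM with poly(I:C) and 508 FPKM untreated in RLKO, against 177 FPKM with poly(I:C) and 420 FPKM untreated in WT. RBM3 had 290 FPKM with poly(I:C) and 498 FPKM untreated in RLKO, against 191 FPKM with poly(I:C) and 713 FPKM untreated in WT. Both had their lowest value in treated WT cells. The list's median log2 change was -0.36 in RLKO and -0.72 in WT, beside -0.24 and -0.70 for all protein-coding rows. In FPKM it was -0.18 in RLKO and -0.11 in WT, beside -0.10 and -0.17, and scaled to the median of all rows it was 0.01 in RLKO.

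Of 13 factors known to act on the ends or the stability of NEAT1 or MALAT1, none was called in RLKO. There 0 had an unadjusted p under 0.05, and in WT 2 had. In WT 1 fell, where 3.09% of protein-coding rows were called lower. RPP30, a subunit of RNase P, which cuts MALAT1 free of its tRNA-like end, had 45.4 FPKM with poly(I:C) and 69.5 FPKM untreated in RLKO, against 23.5 FPKM with poly(I:C) and 105 FPKM untreated in WT. In WT its log2 change was -2.72, with q = 0.0103 in the authors' deposited table. HNRNPC, which binds MALAT1 where methylation opens its structure, had 450 FPKM with poly(I:C) and 689 FPKM untreated in RLKO, against 317 FPKM with poly(I:C) and 633 FPKM untreated in WT. HNRNPK, which favours the long form of NEAT1, had 204 FPKM with poly(I:C) and 231 FPKM untreated in RLKO, against 175 FPKM with poly(I:C) and 260 FPKM untreated in WT. The list's median log2 change was -0.64 in RLKO and -1.13 in WT on the spike-in scale, beside -0.24 and -0.70 for all protein-coding rows. In FPKM it was -0.47 in RLKO and -0.53 in WT, beside -0.10 and -0.17.

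NEAT1 also binds HEXIM1 and the DNA-dependent protein kinase, together with the 4 proteins above, in a complex that takes part in sensing of foreign DNA. Of the 4 genes listed for these partners, none was called in RLKO (0 with an unadjusted p under 0.05). In WT 1 rose and 1 fell, and only these 2 had an unadjusted p under 0.05. Of protein-coding rows, 4.27% were called higher and 3.09% lower there. HEXIM1, an inhibitor of the elongation factor P-TEFb, had 16.9 FPKM with poly(I:C) and 18.8 FPKM untreated in RLKO, against 81.1 FPKM with poly(I:C) and 18.7 FPKM untreated in WT. Like NEAT1 it was high in treated WT cells alone, and in WT its log2 change was 1.47, with q = 0.00546 in the authors' deposited table. XRCC5, the Ku80 subunit of the kinase, had 436 FPKM with poly(I:C) and 712 FPKM untreated in RLKO, against 170 FPKM with poly(I:C) and 567 FPKM untreated in WT. In WT its log2 change was -2.35, with q = 0.0363 in the authors' deposited table.

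The proteins of nuclear speckles, where MALAT1 resides, were not called in either line. None of 18 had an unadjusted p under 0.05 in RLKO, and 1 had in WT, PNN, a splicing protein. It had 66.4 FPKM with poly(I:C) and 87.7 FPKM untreated in RLKO, against 173 FPKM with poly(I:C) and 60.1 FPKM untreated in WT, with q = 0.0846 in the authors' deposited table. The most abundant, SRSF3, had 459 FPKM with poly(I:C) and 810 FPKM untreated in RLKO, against 304 FPKM with poly(I:C) and 778 FPKM untreated in WT. SRSF5, another splicing factor, had 232 FPKM with poly(I:C) and 438 FPKM untreated in RLKO, against 382 FPKM with poly(I:C) and 352 FPKM untreated in WT. The list's median log2 change was -0.29 in RLKO and -0.15 in WT relative to the spike-ins, beside -0.24 and -0.70 for all protein-coding rows. In FPKM it was -0.12 in RLKO and 0.45 in WT, beside -0.10 and -0.17. On the spike-in scale 5 of the 18 rows were below the protein-coding median in WT. Of all protein-coding rows, 4.27% were called higher and 3.09% lower in WT, and 0.821% higher and 0.0246% lower in RLKO. The 0 of 18 called is thus near the background.

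Among other nuclear long noncoding RNAs, called rises in WT were near the share of all lincRNA rows. Of 13 listed, 8 were kept as 9 rows. None was called in RLKO (0 with an unadjusted p under 0.05). In WT 2 rose, where 17.3% of lincRNA rows were called higher. An unadjusted p under 0.05 was given there for 4 of the 9 rows, all higher with poly(I:C). KCNQ1OT1, an RNA of an imprinted locus, had 0.467 FPKM with poly(I:C) and 0.697 FPKM untreated in RLKO, against 2.21 FPKM with poly(I:C) and 0.340 FPKM untreated in WT, with q = 0.0018 in the authors' deposited table. It passed the filter of 1 FPKM through treated WT cells alone, so it had to be highest there. LINC-PINT, a p53-induced RNA, has more than 1 row. The called row had 25.6 FPKM with poly(I:C) and 26.8 FPKM untreated in RLKO. In WT it had 52.7 FPKM with poly(I:C) and 18.03 FPKM untreated, with q = 0.0236 in the authors' deposited table. The other kept row, not called, had 9.53 FPKM with poly(I:C) and 10.5 FPKM untreated in RLKO. In WT that row had 27.2 FPKM with poly(I:C) and 8.89 FPKM untreated, with q = 0.529 in the authors' deposited table. The median log2 change of the list was -0.29 in RLKO and 0.63 in WT. It stood beside -0.21 and 0.55 for all lincRNA rows, and -0.25 and -0.33 for all rows.

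Among long noncoding RNAs that are mostly cytoplasmic or host snoRNAs, 12 of 15 were kept. None was called in RLKO (0 with an unadjusted p under 0.05), and 1 fell in WT, where 2 had such a p. There 0.766% of lincRNA rows and 3.35% of all rows were called lower. CYTOR, an RNA named for its role in cytoskeleton regulation, had 88.0 FPKM with poly(I:C) and 152 FPKM untreated in RLKO, against 57.0 FPKM with poly(I:C) and 229 FPKM untreated in WT, with q = 0.0447 in the authors' deposited table. SNHG5 had 568 FPKM with poly(I:C) and 905 FPKM untreated in RLKO, against 282 FPKM with poly(I:C) and 1293 FPKM untreated in WT, and did not pass (q = 0.0601 in the authors' deposited table). ZFAS1 had 431 FPKM with poly(I:C) and 477 FPKM untreated in RLKO, against 369 FPKM with poly(I:C) and 759 FPKM untreated in WT. The median log2 change was -0.21 in RLKO and -0.48 in WT relative to the spike-ins, but 0.13 in WT in FPKM. The list did not move one way in WT: 7 of the 12 rows were higher with poly(I:C) in FPKM and 4 on the spike-in scale. SNHG1, chosen after its values were seen, had 269 FPKM with poly(I:C) and 292 FPKM untreated in RLKO, against 576 FPKM with poly(I:C) and 332 FPKM untreated in WT, and was not called.

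**Figure D4:**
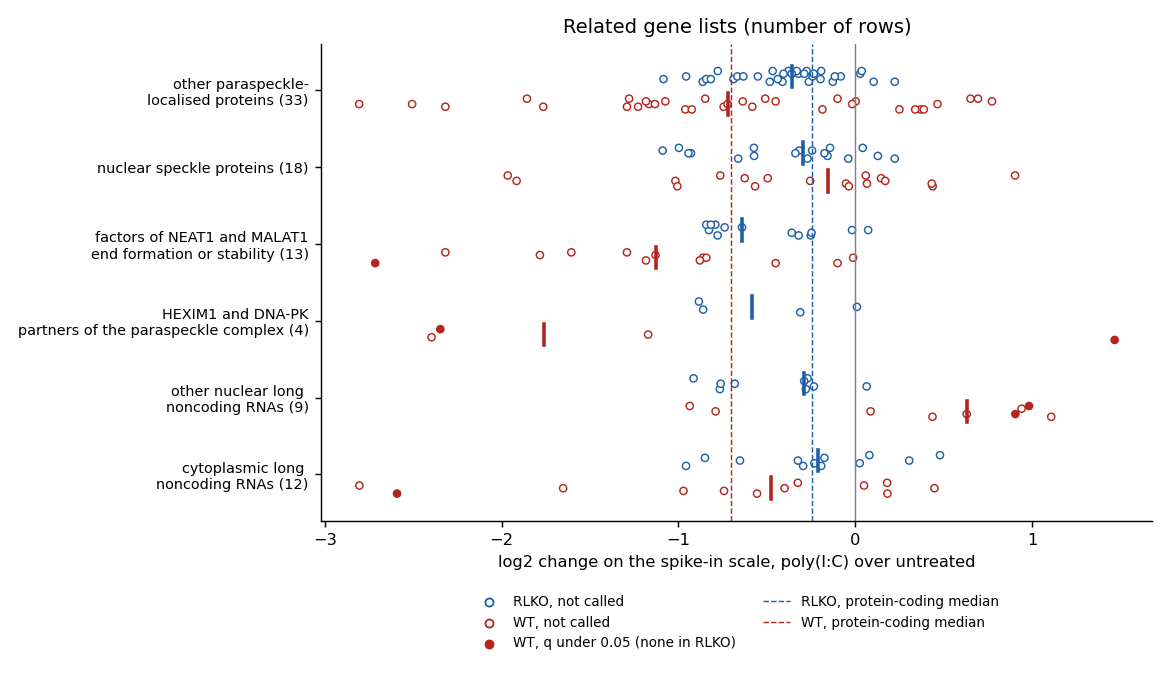
log2 change on the spike-in scale (horizontal axis) of each row of the related lists, in RLKO (blue, upper row of each list) and WT (red, lower row); filled points have q under 0.05, thick bars are list medians and dashed lines the medians of protein-coding rows. Nuclear noncoding RNAs have a median of 0.63 in WT (and 1.22 in FPKM), and factors of end formation or stability a median of -1.13.

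CXCL8 and DDX58 have been reported in other cells to be regulated through NEAT1 and SFPQ, as has CCL5, which did not reach 1 FPKM in any group. CXCL8 and DDX58 rose in each line, where 0.821% of protein-coding rows were called higher in RLKO and 4.27% in WT. CXCL8, a neutrophil chemokine, had 254 FPKM with poly(I:C) and 46.3 FPKM untreated in RLKO, against 373 FPKM with poly(I:C) and 30.0 FPKM untreated in WT. DDX58, the RNA sensor RIG-I, had 163 FPKM with poly(I:C) and 12.7 FPKM untreated in RLKO, against 141 FPKM with poly(I:C) and 11.2 FPKM untreated in WT. Each had q = 0.0107 in RLKO and q = 0.0018 in WT in the authors' deposited table. Whether these changes bear on NEAT1 was not tested.

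The rows whose pattern over the 4 groups was most like that of NEAT1 were searched among 9856 rows with at least 10 FPKM in some group, by the distance between log2 levels on the spike-in scale after each row's mean was removed. RSRP1, which encodes an arginine- and serine-rich protein, was nearest, at a distance of 0.158. It had 29.3 FPKM with poly(I:C) and 34.8 FPKM untreated in RLKO, against 135 FPKM with poly(I:C) and 22.8 FPKM untreated in WT, with q = 0.00442 in the authors' deposited table. RN7SKP271, RPS27AP13, AC113410.3 and ITGB1BP2 followed at 0.218 to 0.242. Among these ITGB1BP2, an integrin-binding protein of muscle, was called in WT (q = 0.0018 in the authors' deposited table), and reads of the pseudogenes RN7SKP271 and RPS27AP13 can belong to other copies. RN7SKP271, AC113410.3 and ITGB1BP2 reached 10 FPKM in treated WT cells alone, so the search could find them only with a high value there, and their likeness is in part set by that filter. For MALAT1 the nearest were THAP5, JMJD1C, VPS13A, NIPBL and ATAD2B, at 0.0897 to 0.128, and none of them was called in either line. JMJD1C, a demethylase-like chromatin protein, had 28.1 FPKM with poly(I:C) and 26.9 FPKM untreated in RLKO, against 33.4 FPKM with poly(I:C) and 16.2 FPKM untreated in WT. As with MALAT1, untreated WT cells were the low group. The likeness rests on 4 values a row.

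**Figure D5:**
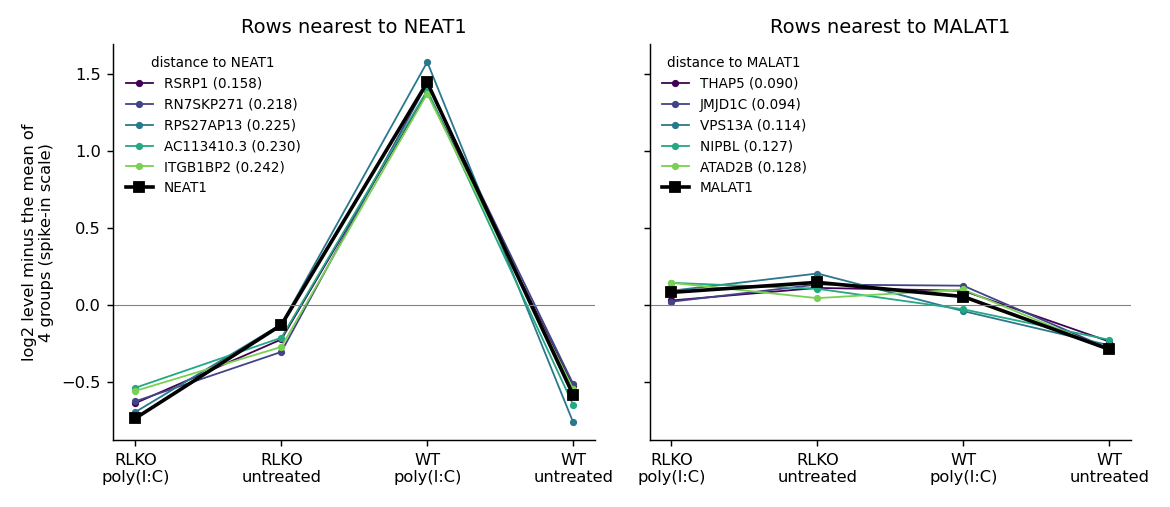
log2 level on the spike-in scale after subtraction of each row's mean over the 4 groups (vertical axis), for NEAT1 and its 5 nearest rows (left) and MALAT1 and its 5 nearest rows (right), with the distance in parentheses. The NEAT1 set peaks in treated WT cells and the MALAT1 set is lowest in untreated WT cells.

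The noncoding pair were long, at 22743 bases for NEAT1 and 8708 bases for MALAT1 in the deposited table, against 2407 to 3747 bases for the proteins' transcripts. The dinucleotides TT and TA made up 16.6% of those in the long NEAT1 transcript and 17.7% in MALAT1, above 84.3% and 88.3% of lincRNA rows, whose median was 12.02%. In the longest transcripts of SFPQ, NONO, PSPC1 and RBM14 the share was 12.97%, 13.6%, 13.01% and 9.13%, around the protein-coding median of 11.8%. The GC content ran from 40.3% in PSPC1 to 50.5% in RBM14, with 44.1% in NEAT1 and 40.6% in MALAT1. The half-life that the authors took from another study was 7.29 for SFPQ, 13.4 for NONO and 5.42 for RBM14, in hours as far as the range of that column shows, with none listed for the others.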

How the data were processed

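Per the labels, the authors sequenced total RNA of 12 samples; ERCC spike-ins went in before rRNA was depleted. Per the submitters' processing notes, Cuffdiff 2.2.1 was used with the build GRCh38.p12, besides Bowtie2 2.0.2, TopHat2 2.0.6, Trimmomatic 0.32 and FastQC. The authors deposited 1 table with 1 FPKM value per group (fragments scaled to transcript length and library size); the headers do not name this unit, and it is taken from Cuffdiff being named. Replicates were pooled, so no spread between samples can be given and depth is unknown. Per the file headers, the table also holds the authors' p-value and q-value of poly(I:C) against untreated cells in each genotype, the GC content in percent, the length and a half-life from another study.

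Changes within a genotype were called by the deposited q-values, with a threshold of 0.05 and no further test. Counts at an unadjusted p under 0.05 have no background, as the share of all rows at that threshold was not counted. Of 58671 gene rows, 86 rows marked as failed estimates (HIDATA) and 45 repeats of an identifier were dropped, and 22087 with at least 1 FPKM in some group were kept. Of these, 2572 in RLKO and 1215 in WT have a listed p of 1 and count as not called. The spike-in scale divides each group by its median ratio, over the 49 ERCC rows averaging 1 FPKM or more, to the geometric mean of the groups. Changes are log2(value + 1), which understates low genes. Coordinates, gene classes and sequences are from GENCODE 29 (GRCh38), in which all kept rows were found. The steps were tested on simulated data with known shifts, in Python 3.11. All 6 members are named. From each of 7 related lists, the text names up to 4 called members per genotype, or the 2 most abundant where fewer than 2 were called. Named besides are the 5 rows nearest in pattern to NEAT1 and to MALAT1, and rows within 100 kb of either; some genes that this rule names are not reported here, and PNN and SNHG1 were chosen after their values were seen. The members and the lists were chosen with earlier results of these data known. Alternatives were another pseudocount, other scalings, other filters, a q threshold of 0.01 and p-values adjusted over the kept rows. Comparisons between the genotypes carry no test.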

Additional observations from a re-analysis of the deposited data

How the results depend on the processing

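NEAT1 stayed above 0 in WT and below 0 in RLKO under all 5 alternative scales or pseudocounts, and its change in WT was 2.63 in FPKM as deposited. Of 150 values of the 6 genes under these alternatives, 130 kept their sign and stayed within a 1.5-fold change of the linear ratio behind them, 4 moved further, all in WT in FPKM, and 16 changed sign. A log2 value near 0 can change by much more than 1.5 times within that limit. In FPKM as deposited the changed signs were those of MALAT1 in RLKO (0.11) and between the treated lines (-0.11), PSPC1 in RLKO (0.089) and in WT (0.032), RBM14 in WT (0.43) and between the untreated lines (0.026), and SFPQ between the untreated lines (0.23). With the sum of the spike-ins they were SFPQ in WT (-0.050), PSPC1 between the treated lines (0.040) and the response difference of RBM14 (0.038). With scaling to the median of all rows they were MALAT1 (0.30), NONO (0.051), PSPC1 (0.27) and RBM14 (0.14) in RLKO, RBM14 in WT (0.37) and SFPQ between the untreated lines (0.14). List medians changed sign in 11 of 105 cases and moved further than that limit in 5, all in WT in FPKM: -0.11 for the paraspeckle list, -0.53 for end formation or stability, -1.15 for the HEXIM1 list, 1.22 for nuclear RNAs and 3.57 for the cytokine and sensor genes. In FPKM the medians that changed sign were those of the speckle list (0.45) and the cytoplasmic RNAs (0.13) in WT. The response differences of the paraspeckle list (-0.13), the speckle list (-0.36) and the cytoplasmic RNAs (-0.048) changed sign too. With scaling to the median of all rows, the paraspeckle (0.0087), speckle (0.072) and cytoplasmic (0.15) lists changed sign in RLKO. So did the speckle (0.39) and cytoplasmic (0.069) lists in WT, and the response difference of the speckle list (-0.11). None of the single genes whose sign changed was called.

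At a q threshold of 0.01, 0 rows were called higher and 0 lower in RLKO, as the smallest q there is 0.0107, and 626 higher and 247 lower in WT, and NEAT1 in WT was still called. With at least 10 FPKM in some group, 72 rows were called higher in RLKO and 324 in WT. With p-values adjusted over the kept rows, NEAT1 had 0.00197 and MALAT1 0.218 in WT. The lower counts follow from fewer rows or a stricter threshold. No paired analysis was possible because the table gives 1 value per group, and for the same reason no replicate could be left out. Depth is unknown.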

Other observations

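NEAT1 was called higher in WT and had a log2 change below 0 in RLKO. The same combination was counted over all rows. Of the 990 rows called higher in WT, 391 (39.5%) were below 0 in RLKO on the spike-in scale, where 76.7% of all 22087 rows were below 0, and 332 (33.5%) were below 0 in FPKM, where 64.6% of all rows were. Of the 520 protein-coding rows among them 146 (28.1%) were below 0 in RLKO, against 80.1% of all protein-coding rows, and 94 were called there. Of the 181 lincRNA rows 107 (59.1%) were below 0 in RLKO, against 74.5% of all lincRNA rows, and 2 were called there. The difference between these shares was not tested.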
